A study of Canis lupus familiaris with 6 samples.

Results

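The 10 genes described here encode the parts of the cone light response: the opsins OPN1SW and OPN1LW, the transducin subunits GNAT2 and GNGT2, the phosphodiesterase subunits PDE6C and PDE6H, the arrestin ARR3, the opsin kinase GRK7 and the channel subunits CNGA3 and CNGB3. They were chosen by name, and all 10 are among the 34981 genes counted in every library. Neural retina came from immunosuppressed dogs of normal or wild-type genotype, whose age the sources used here do not give. Triturated fragments of retinal organoids had been placed under the retina 3 days earlier. The organoids were grown from the human embryonic stem cell line WA09 with a CRX-tdTomato reporter, a line that is long established. Each of 3 experiments (LG5, RC726, RC724) gave 1 punch of 5 mm over the graft and, from elsewhere in that retina where no graft lay, 1 control punch of 5 mm. Both kinds of punch therefore share the immunosuppression and the operated eye. The sources used here do not say where in the retina each punch lay, so the graft and the position cannot be told apart. Whether the experiments used separate dogs is not given either. The p-values rest on the spread between these 3 pairs, moderated by the spread of all genes tested.

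Cones detect light through an opsin that activates the G protein transducin. Transducin releases the inhibitory subunit from a phosphodiesterase, cyclic GMP falls and cyclic nucleotide-gated channels close. A receptor kinase and an arrestin shut the opsin off. Rods run the same cascade with their own gene copies, and the dog retina has cones with a short-wave opsin and cones with a long or medium-wave opsin.

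The 6 libraries held between 34768162 and 60755006 UMIs, and between 8039 and 22427 barcodes per library were kept. Any 2 libraries shared between 17 and 85 barcode sequences, at most 0.644% of the smaller. For LG5 the cone-like class held 1177 barcodes over the graft and 948 in its control, for RC726 424 against 323 and for RC724 198 against 265. Rod-like barcodes numbered between 4887 and 7221 per library. Cone-like clusters were named by 11 cone markers, none of them among the 10 genes, so higher levels of these are in part set in advance. Of the 11, 8 were higher in cone-like than in rod-like cells of every control library, GNB3 for example at 1045 against 16.3 CPM on average. KCNE2 had 3 UMIs in all control cone-like cells, and CLUL1 was higher in rod-like cells. THRB was not higher in cone-like cells of every control library. Nearly all LG5 cones formed a cluster of their own, the other experiments shared a second one, and another, small cluster had few UMIs per barcode. The cone-like class joins these 3 clusters. LG5 was counted with an older Cell Ranger version than the others, and experiment and version cannot be told apart.

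All 10 genes were concentrated in cone-like cells. In control punches, between 68.0% and 98.4% of the UMIs that a gene had in the whole punch lay in cone-like barcodes. These made up 3.30% to 5.63% of all barcodes, but held more UMIs per barcode (by median) than the kept barcodes of their library. Per UMI, the level in control cone-like cells was between 8.595 times (GRK7, RC726) and 16.05 times (OPN1LW, RC724) that of the whole punch. Levels below are CPM of 3' UMIs, which are compared between classes and groups and not between genes.

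**Figure D1:**
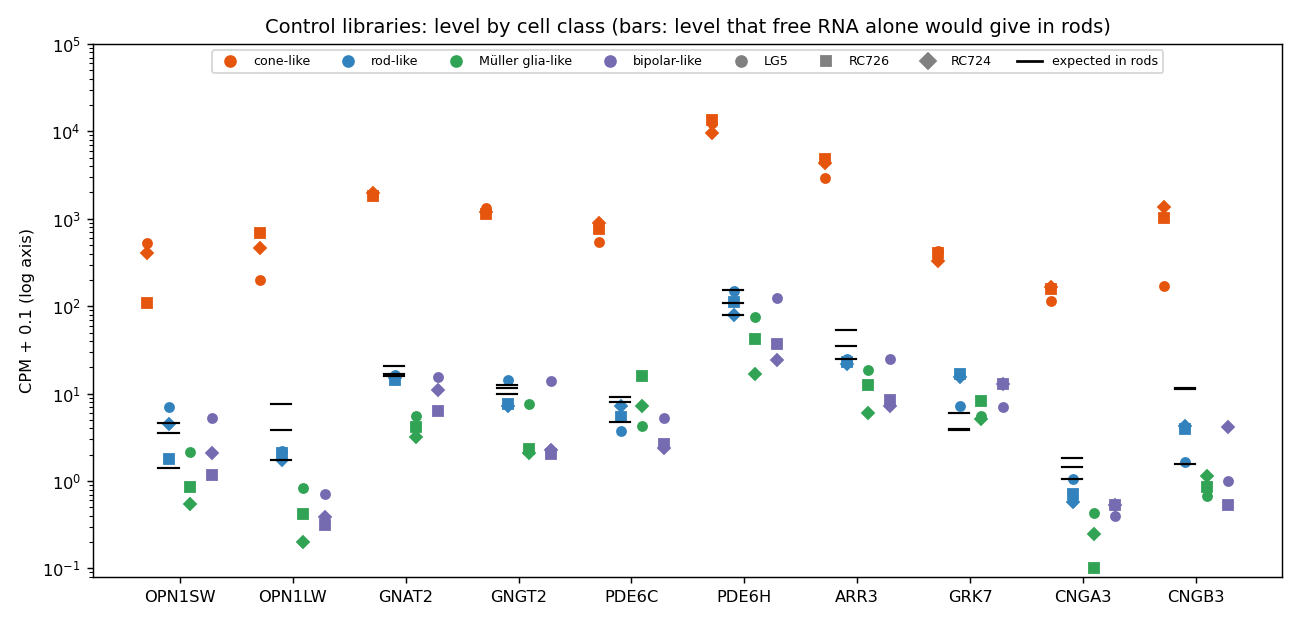
Level of each gene (CPM + 0.1, log axis) in cone-like, rod-like, Müller glia-like and bipolar-like cells of the 3 control libraries, 1 point per library. Black bars mark the free RNA level estimated for rods. Every cone-like point lies above every point of the other classes for the same gene, and GRK7 and OPN1SW are the genes whose rod-like points lie above the bar of their own library in all 3 libraries.

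The opsins separated the classes widely. OPN1LW, the long or medium-wave opsin, was at 199, 693 and 464 CPM in cone-like cells of the control punches of LG5, RC726 and RC724, and at 2.12, 1.97 and 1.64 CPM in the rod-like cells. OPN1SW, the short-wave opsin, was at 532, 109 and 410 CPM in cone-like cells and at 6.93, 1.70 and 4.34 CPM in rod-like cells. The order of the experiments was reversed between the opsins, since LG5 had the lowest OPN1LW and the highest OPN1SW. The RC726 value of OPN1SW depended on the removal of likely doublets and was 266 CPM without it.

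The transducin alpha subunit GNAT2 was the steadiest of the 10 across control cones, at 1893 CPM ± 76.7 (SD, n = 3), against 15.2 ± 1.14 in rod-like cells. GNGT2, the gamma subunit, stood at 1212 CPM ± 107 and at 9.54 ± 3.92. PDE6C, the catalytic subunit of the cone phosphodiesterase, averaged 733 CPM ± 182 in cones, 5.39 ± 1.74 in rods and 9.09 ± 6.12 in Müller glia-like cells. PDE6C was the member for which the average of Müller glia-like cells was above that of rod-like cells. Its neighbour RBP4 in the RefSeq order is an abundant Müller glia transcript here (22920 to 62650 CPM), and whether reads of one reach the other was not tested.

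PDE6H, the inhibitory subunit, averaged 11850 CPM ± 2014 in control cones and 113 ± 35.0 in control rods. ARR3, the cone arrestin, averaged 4023 ± 975 and 23.1 ± 1.60. GRK7, the cone opsin kinase, averaged 385 ± 52.5 and 13.0 ± 5.13, the smallest separation between the classes among the 10. CNGA3, the alpha subunit of the cone channel, averaged 146 ± 27.4 CPM in cones and 0.685 ± 0.249 in rods.

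CNGB3, the beta subunit, split the experiments. Its control cones held 172 CPM in LG5, 1012 in RC726 and 1373 in RC724, while those of CNGA3 held 115, 157 and 167. In the small low-UMI cone cluster CNGB3 was at 57.0 and 162 CPM (RC726 and RC724 controls), against 1067 and 1393 in the large cluster of the same libraries. PDE6H went the other way there, at 18860 and 21930 CPM against 13060 and 9374. The small cluster held 131 and 44 control barcodes, with medians of 1076 and 866 UMIs against 15075 and 12957 in the large one.

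RNA set free by broken cells reaches every droplet, so rod levels need a reference. From Müller glia and bipolar markers, free RNA was estimated at 9.68% to 17.4% of UMIs in rod-like cells, and the whole-punch profile then gives an expected level for each gene. In control rods of RC726 and RC724, ARR3 was measured at 22.6 and 21.7 CPM where 53.6 and 35.4 were expected. PDE6H was at 110.3 and 79.2 CPM where 152 and 79.9 were expected. In each of the 4 libraries of these experiments, 2 of the 10 members lay above the expected level. The estimate can run too high. In Müller glia-like cells of the RC724 control, made there from rod genes, it expected 34.4 CPM of ARR3 where 5.90 was measured. Lying under it therefore cannot show that a rod level is background. PDE6H in that library was at 79.2 CPM in rod-like, 16.8 in Müller glia-like and 24.2 in bipolar-like cells, while PDE6C averaged higher in Müller glia-like than in rod-like cells, as given above.

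GRK7 was above the expected level in rod-like cells of all 6 libraries. In control rods it was measured at 16.5 CPM in RC726 with 5.83 expected, and at 7.13 CPM in LG5 with 3.89 expected. GRK7 overlaps RNF7 in the RefSeq table, and RNF7 was at 103 to 338 CPM in rod-like cells. Whether UMIs of RNF7 were counted as GRK7 was not tested, so the GRK7 level outside cones is uncertain. In LG5 rods, 7 of 10 members over the graft and 8 of 10 in control were above the expected level, by at most 1.90 and 1.83 times.

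In cone-like cells over the graft, ARR3 and GRK7 fell, and 0 of the 10 genes rose. All 10 estimates were below 0, with a median of -0.60 on the log2 scale against 0.02 over all genes tested in these cells. By edgeR, 2 of 10 members fell where 1.19% of 11426 genes fell, and 7 of 10 had an unadjusted p under 0.05, as did 15.2% of all genes. Without a test, 7 of 10 were lower in all 3 experiments, as were 14.7% of all genes. For 3 members, GRK7, GNAT2 and GNGT2, every library over the graft lay below every control library, as for 2.17% of all genes.

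**Figure D2:**
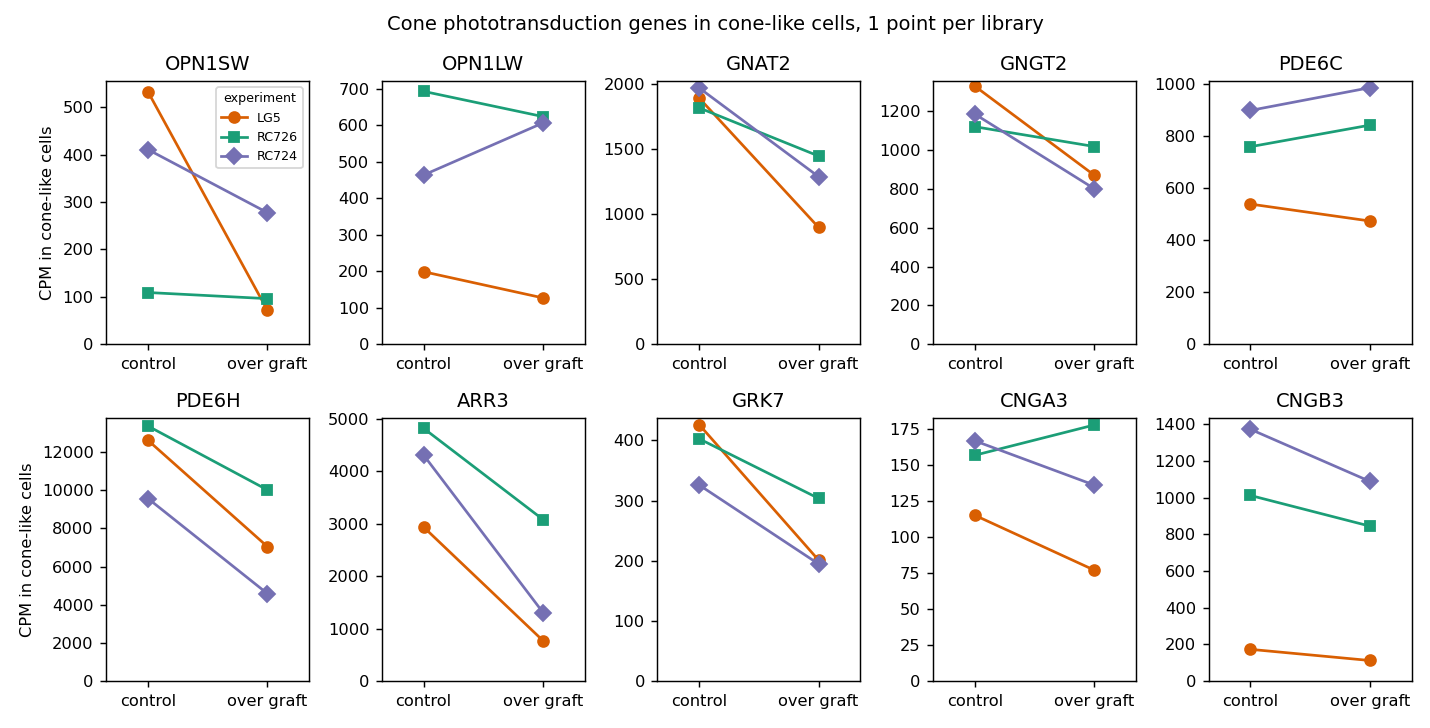
CPM of each of the 10 genes in cone-like cells, with control at the left and over the graft at the right of each panel and 1 line per experiment (each axis starts at 0). ARR3, PDE6H, GRK7, GNAT2, GNGT2, OPN1SW and CNGB3 go down in all 3 experiments, and PDE6C runs nearly level.

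ARR3 had the smallest p of the 10. It was at 767, 3081 and 1305 CPM over the graft and at 2936, 4822 and 4310 CPM in control (LG5, RC726, RC724). RC726 was the highest in both groups, and its punch over the graft was above the LG5 control, so the groups overlap although each pair goes down. The log2 change was -1.48 ± 0.25 (SE, n = 3 pairs, edgeR adjusted p = 0.00473), with -1.93 in LG5, -0.65 in RC726 and -1.72 in RC724.

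The share of cone-like barcodes with an ARR3 UMI moved the same way. After thinning every barcode to 500 UMIs, it would be 24.4% over the graft and 77.2% in control for LG5, 59.6% and 75.1% for RC726, and 40.5% and 83.85% for RC724. Unthinned, these shares were 43.5% and 99.2%, 83.5% and 90.4%, and 91.4% and 98.1%, at medians of 1401 and 2054, 5942 and 6531, and 13330 and 11340 UMIs. In rod-like cells, which should lack ARR3, the thinned share was between 0.36% and 1.48%.

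GRK7 was at 201, 304 and 194.5 CPM over the graft and at 426, 403 and 326 CPM in control (LG5, RC726, RC724). Every library over the graft was below every control library. The change was -0.78 ± 0.17 (SE, n = 3 pairs, edgeR adjusted p = 0.0171).

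OPN1SW had the second largest estimate and did not pass the threshold. It was at 71.4, 96.1 and 277 CPM over the graft and at 532, 109 and 410 CPM in control (LG5, RC726, RC724). Cone-like barcodes with an OPN1SW UMI were 16 of 1177 over the graft and 92 of 948 in control for LG5. They were 10 of 424 and 12 of 323 for RC726, and 54 of 198 and 33 of 265 for RC724. In a class sum, the share of barcodes with OPN1SW and the level in them cannot be told apart. LG5 showed a wide gap and RC726 almost none, and RC724 over the graft was above the RC726 control, so the groups overlapped. The change was -1.19 ± 0.38 (SE, n = 3 pairs, edgeR adjusted p = 0.119), with -2.88 in LG5, -0.18 in RC726 and -0.56 in RC724. Leaving out LG5 gave -0.42 (edgeR adjusted p = 0.101), leaving out RC726 -1.73 (0.0475) and leaving out RC724 -1.58 (0.0133), so whether OPN1SW was called turned on single experiments. DESeq2 gave -1.21 (adjusted p = 0.899).

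OPN1LW was at 127, 624 and 607 CPM over the graft and at 199, 693 and 464 CPM in control, higher in RC724 and lower in the other 2 experiments. The change was -0.16 ± 0.19, with a 95% interval from -0.58 to 0.26 (edgeR adjusted p = 0.788). The difference between the opsins was not tested.

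Neither transducin subunit passed the threshold, although neither had overlapping groups. GNAT2 was at 898, 1447 and 1288 CPM over the graft and at 1892, 1817 and 1970 CPM in control, for a log2 change of -0.71 ± 0.19 (edgeR adjusted p = 0.0628). GNGT2 was at 871, 1019 and 802 CPM and at 1330, 1121 and 1186 CPM, with a change of -0.48 ± 0.17 (edgeR adjusted p = 0.171). RC726 showed the smallest difference in both genes. DESeq2, by which 0.814% of all genes fell in cones, called GNAT2 (-0.71, adjusted p = 0.0105).

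The phosphodiesterase subunits differed in their values. PDE6H was at 7045, 10020 and 4579 CPM over the graft and at 12620, 13370 and 9567 CPM in control, lower in each pair, with a change of -0.82 ± 0.24 (SE, n = 3 pairs) that missed the threshold in edgeR (adjusted p = 0.0892) and passed in DESeq2 (adjusted p = 0.000438). PDE6C was at 474, 843 and 987 CPM over the graft and at 539, 760.0 and 899.6 CPM in control, lower in 1 pair and higher in the other 2. Its change was -0.0078 ± 0.16 with a 95% interval from -0.35 to 0.34 (edgeR adjusted p = 0.992). PDE6C is the only one of the 10 whose interval in cones stays within 0.5 log2 units of 0.

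The channel subunits did not pass the threshold. CNGB3 was at 111, 845 and 1089 CPM over the graft and at 172, 1012 and 1373 CPM in control, lower in each pair, while the experiments were much further apart than the groups (-0.44 ± 0.16, edgeR adjusted p = 0.201). CNGA3 was at 76.9, 178 and 136 CPM and at 115, 157 and 167 CPM, higher over the graft in RC726 (-0.25 ± 0.17, adjusted p = 0.539).

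**Figure D3:**
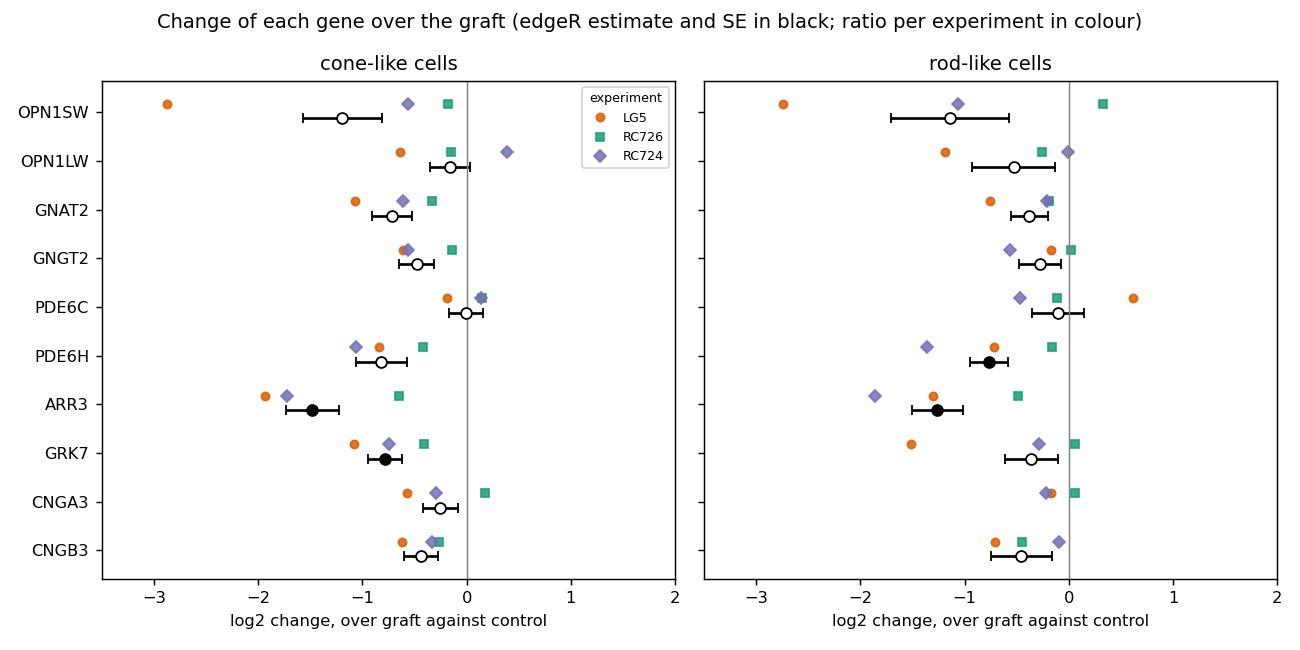
Log2 change over the graft of each gene in cone-like cells (left) and rod-like cells (right). Black circles are edgeR estimates with their SE, filled where the adjusted p is under 0.05, and coloured points are the ratios of the 3 experiments. In cones ARR3 and GRK7 are filled, in rods ARR3 and PDE6H, and CNGA3 has no estimate in rods.

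The experiments differed in size. Over the 10 genes, the median log2 ratio in cone-like cells of LG5 was -0.74, against -0.22 in RC726 and -0.56 in RC724. All 10 were lower over the graft in LG5, and 8 of 10 in each of RC726 and RC724. The exceptions were PDE6C and CNGA3 in RC726 and PDE6C and OPN1LW in RC724.

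RNA from rods moved with the groups inside the cone-like barcodes. The UMIs of 8 rod genes made up 0.362% of cone UMIs over the graft and 0.906% in control for LG5, 0.0721% and 0.0829% for RC726, and 0.0301% and 0.0449% for RC724. Free RNA was estimated at 28.1% and 16.7% of cone UMIs, 5.43% and 4.22%, and 5.51% and 5.26% in the same order. Among barcodes with at most 0.3% rod UMIs, the change was -1.62 for ARR3 (edgeR adjusted p = 0.00359) and -0.87 for GRK7 (0.0129), as large as in all cone-like barcodes. With free RNA subtracted, the changes were -1.42 and -0.73 (edgeR adjusted p = 0.0355 and 0.0545), so the sizes moved little and ARR3 alone was called.

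Single experiments decided some calls. Without RC724, ARR3 stood at -1.35 (edgeR adjusted p = 0.0526) and GRK7 at -0.80 (0.0757), and OPN1SW was the member called. Without LG5, ARR3, GRK7, PDE6H (-0.77, adjusted p = 0.00213) and GNAT2 (-0.50, adjusted p = 0.0302) were called. Without RC726, ARR3, GRK7 and OPN1SW were.

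In rod-like cells, whose low levels may be free RNA in part or whole, 2 of 9 tested members fell, against 10.3% of 15337 genes tested there. CNGA3 was not tested in rods, having 0.566 ± 0.256 CPM over the graft. ARR3 was at 9.46, 15.8 and 5.24 CPM over the graft and at 24.8, 22.6 and 21.7 CPM in control, with no overlap (-1.26 ± 0.25, SE, n = 3 pairs, edgeR adjusted p = 0.00455). PDE6H was at 90.1, 98.2 and 30.2 CPM and at 149, 110.3 and 79.2 CPM, lower in each pair with overlapping groups (-0.77 ± 0.18, adjusted p = 0.0136). The other tested members did not pass, with estimates from -1.14 for OPN1SW to -0.10 for PDE6C. Of the 10, 5 were lower in all 3 experiments, where 24.8% of all genes were, and 3 (ARR3, GNAT2 and OPN1LW) had groups that did not overlap, where 4.26% of all genes did.

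The free RNA expected in rods moved as well. By the estimate above it would give ARR3 levels of 5.36, 32.1 and 11.5 CPM in rods over the graft and 25.0, 53.6 and 35.4 CPM in control (LG5, RC726, RC724), lower over the graft in each experiment. After free RNA was subtracted, 2 of the 10 members kept enough UMIs in rods to be tested, and neither passed: GRK7 stood at -0.29 and OPN1SW at -0.97 (edgeR adjusted p = 0.641 and 0.581). ARR3 and PDE6H could not be tested there. Without RC724, 0 members were called, with ARR3 at -0.92 (adjusted p = 0.0706) and PDE6H at -0.49 (0.164).

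The change in cones was tested directly against the change in rods for each gene, and 0 of 10 differed (edgeR, 0 also at an unadjusted p under 0.05), where 0.171% of 14021 genes did and 10.3% had an unadjusted p under 0.05. The rod side of this test may be free RNA in part or whole, so a change in rods themselves cannot be told apart from one in free RNA. CNGA3, too low to test in rods alone, is among the 10 here. The difference for ARR3 was -0.21 with a 95% interval from -1.10 to 0.68, and that for GRK7 was -0.43, from -1.11 to 0.24. These intervals are wide, and for OPN1SW the interval ran from -2.16 to 1.94.

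In the whole punch, which needs no naming of cells, 3 of 10 members fell, where 1.25% of 21359 genes fell. They were ARR3 (-1.84 ± 0.30, edgeR adjusted p = 0.0333), PDE6H (-1.17 ± 0.19, adjusted p = 0.0361) and GNGT2 (-0.80 ± 0.15, adjusted p = 0.0473; SE, n = 3 pairs). GNAT2 and CNGB3 missed the threshold narrowly, at -1.03 ± 0.20 (adjusted p = 0.0505) and -0.75 ± 0.15 (0.0538). OPN1SW had -1.54 ± 0.58 (adjusted p = 0.179) and GRK7 -0.84 ± 0.23 (0.0958). In a sum over all cells, fewer cones and less RNA per cone cannot be told apart. Cone-like barcodes made up 5.25% of those kept over the graft and 5.63% in control for LG5, 3.998% and 3.475% for RC726, and 2.28% and 3.30% for RC724. Without LG5, PDE6H and GNGT2 were not called (adjusted p = 0.0570 and 0.0589), and without RC726 or RC724, 7 members were, GNAT2 (-1.29, adjusted p = 0.00624, and -1.16, adjusted p = 0.0309) among them.

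In Müller glia-like and bipolar-like cells, 0 members were called by edgeR, with 2 of 8 and 1 of 6 tested at an unadjusted p under 0.05. In Müller glia-like cells these were ARR3 (-1.63 ± 0.35, SE) and PDE6H (-0.79 ± 0.17), the members called in rods, both lower in each experiment. In bipolar-like cells it was PDE6H (-0.52 ± 0.23). The share of all genes was 0.322% and 0.146% for adjusted calls, and 13.7% and 11.3% at the unadjusted threshold.

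Cones of the dog carry mainly 1 opsin each. Few barcodes of LG5 and RC726 had UMIs of both, while RC724 did not show this split by any UMI. There 39 barcodes over the graft and 21 in control had both, against 15 and 12 with OPN1SW and not OPN1LW. In control cones, barcodes with UMIs of OPN1LW and not OPN1SW numbered 362 in LG5, 190 in RC726 and 187 in RC724, and those with OPN1SW and not OPN1LW 89, 11 and 12. Barcodes with both were 0.3165%, 0.310% and 7.925% of the class, where independent draws of the observed shares would give 3.74%, 2.20% and 9.77%. Over the graft, 0.0850% of LG5 and 19.7% of RC724 barcodes had both, against 0.2425% and 23.55% under independence. In RC726 over the graft 0 of the 424 barcodes left by the doublet step had both, which allows a share of up to 0.708% among such barcodes.

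RC724 had the highest share with both in each group. Over the graft 14 of its barcodes, and in control 8, had at least 5 UMIs of each opsin. RC726 had 0 such barcodes, where 156 and 139 barcodes reached 5 UMIs of OPN1LW. The doublet step had removed 14.0% and 18.8% of its cone-like barcodes. Without that step its OPN1SW level was 232 and 266 CPM, against 96.1 and 109 with it. Whether barcodes with both opsins were among those removed was not tested. In LG5 at most 3 barcodes of a library reached 5 UMIs of OPN1LW, so barcodes with 5 of each could hardly be found there. RC724 cones also had the most UMIs per barcode, and doublets among them were not separated further.

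**Figure D4:**
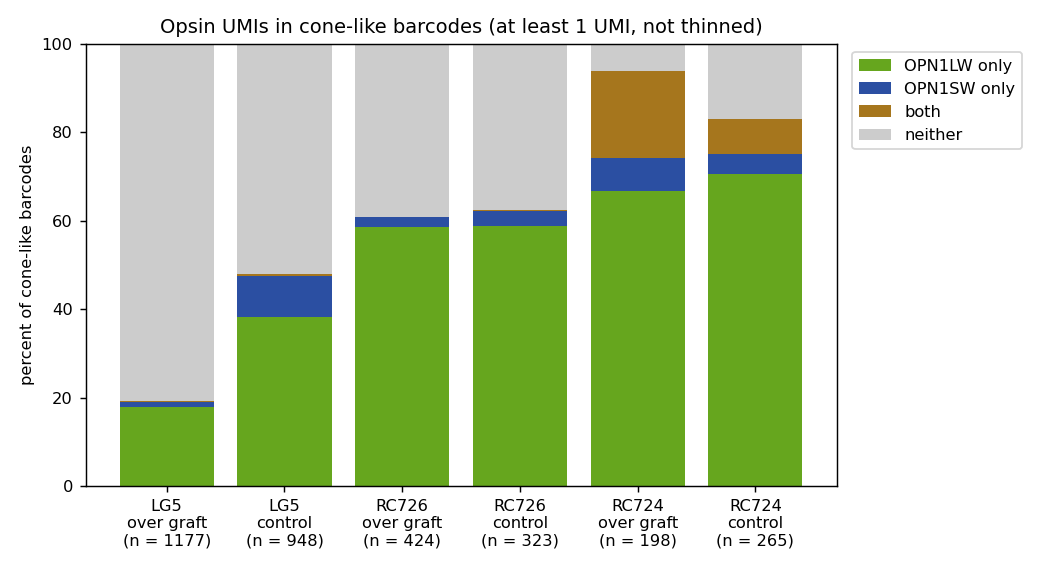
Percent of cone-like barcodes with at least 1 UMI of OPN1LW only, OPN1SW only, both or neither, for each library (not thinned, so depth sets the part with neither). OPN1SW-only barcodes are 15 of 1177 in LG5 over the graft and 89 of 948 in its control, 10 of 424 and 11 of 323 in RC726, and 15 of 198 and 12 of 265 in RC724, where the order is the other way.

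Barcodes with at least 3 UMIs of OPN1SW and over 3 times as many as of OPN1LW were taken as a short-wave subset, as a description chosen on these UMIs. LG5 had 13 of them over the graft and 83 in control (1.105% and 8.755% of cone-like barcodes), RC726 8 and 7 (1.89% and 2.17%) and RC724 16 and 24 (8.08% and 9.06%). The share was lower over the graft in each experiment under this rule. By any OPN1SW UMI it was not: in RC724 the share of cone-like barcodes with one was 27.3% over the graft and 12.45% in control, or 9.71% and 8.745% after thinning to 500 UMIs. In LG5 the thinned shares were 1.08% and 8.375%, and in RC726 1.43% and 2.50%. The RC726 subset has only 8 and 7 barcodes, counted after the doublet step that lowered OPN1SW there.

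The short-wave and long-wave subsets also differed in other members. In control punches, ARR3 was at 1920 CPM in the OPN1SW subset and 3271 in the OPN1LW subset of LG5, at 2713 and 5088 in RC726 and at 3785 and 4427 in RC724. PDE6H was at 7543 and 14490, 5764 and 13650, and 8888 and 9562 CPM. GNGT2 was at 1394 and 1424, 1310 and 1137, and 1356 and 1172 CPM, so the lower level in the OPN1SW subset held in all 3 controls for ARR3 and PDE6H, and in 1 of them for GNGT2. The LG5 OPN1LW subset has 20 control barcodes, and no test was made because the subsets share libraries.

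Over the graft, ARR3 was lower than in control in both subsets of each experiment. In the OPN1SW subset it was at 1513, 1660 and 1549 CPM (LG5, RC726, RC724), and in the OPN1LW subset at 1001, 3368 and 1375 CPM. The LG5 values rest on 48 and 14 UMIs of ARR3.

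Other genes of the pathway, from a list of 28 of which 27 were tested, mostly had negative values in cones. Of 16 that cones share with rods or that regulate the cascade, 2 fell, where 1.19% of all genes fell in cones, and 1 rose. GUCA1A, an activator of guanylate cyclase, was at 1511 CPM ± 1065 over the graft and 3360 ± 1028 in control (SD, n = 3) and fell by 1.38 ± 0.26 on the log2 scale (SE, edgeR adjusted p = 0.00823). PDC, phosducin, which binds transducin beta and gamma subunits, fell by 0.87 ± 0.20 (adjusted p = 0.0285). GNB5, a partner of the transducin-inactivating RGS9, had -0.61 ± 0.16 (0.0559), and RGS9 itself -0.55 ± 0.18 (0.139). The cyclase GUCY2F was not tested, having 7.51 CPM in control.

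GUCA1C, another cyclase activator, was the one that rose, where 2.54% of all genes rose in cones. It was at 485 CPM ± 190 over the graft and 147 ± 44.4 in control with no overlap (1.63 ± 0.20, adjusted p = 0.000489). GUCA1C is also one of the markers that name cones here. GNB3, the beta subunit that pairs with GNAT2 and GNGT2, had 0.14 ± 0.16 (adjusted p = 0.783), a further marker of the class.

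Of 12 rod counterparts, 3 fell in the cone-like barcodes too, where 1.19% of all genes fell. Among them were SLC24A1 (-1.46, edgeR adjusted p = 0.0081) and GNGT1 (-0.92, adjusted p = 0.0418). These are transcripts of which the share from rods moved with the groups, as given above, and its part in these values was not tested. Without RC724, 3 of the 28 genes were called in cones.

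In rod-like cells, where 10.3% of all genes fell, 10 of the 12 rod counterparts fell and 0 rose, with a median of -0.91. Of the 16 other pathway genes, 9 fell and 2 (GNB3 and GUCA1C) rose, where 11.3% of all genes rose in rods. Without RC724, 6 of the 28 were called there. GUCA1C was at 7.49 CPM over the graft and 2.42 in control in rods, against 485 and 147 in cones. GNB3 was at 30.6 and 16.3 CPM in rods, against 1177 and 1045 in cones. Both are markers that name cones here, and the part of free RNA in their rod values was not tested.

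Set beside each other in their own cells, the cone and rod copies had unlike values at some steps of the cascade. PDE6C had -0.0078 ± 0.16 in cones, while PDE6A and PDE6B, which form the rod catalytic core, had -0.96 ± 0.17 (adjusted p = 0.00253) and -1.002 ± 0.14 (0.000692) in rods. For arrestin it was the reverse, with -1.48 ± 0.25 for ARR3 and -0.40 ± 0.18 for the rod arrestin SAG (adjusted p = 0.135). The inhibitory subunits had -0.82 ± 0.24 (PDE6H) and -0.76 ± 0.17 (PDE6G, adjusted p = 0.00948), nearly the same size.

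**Figure D5:**
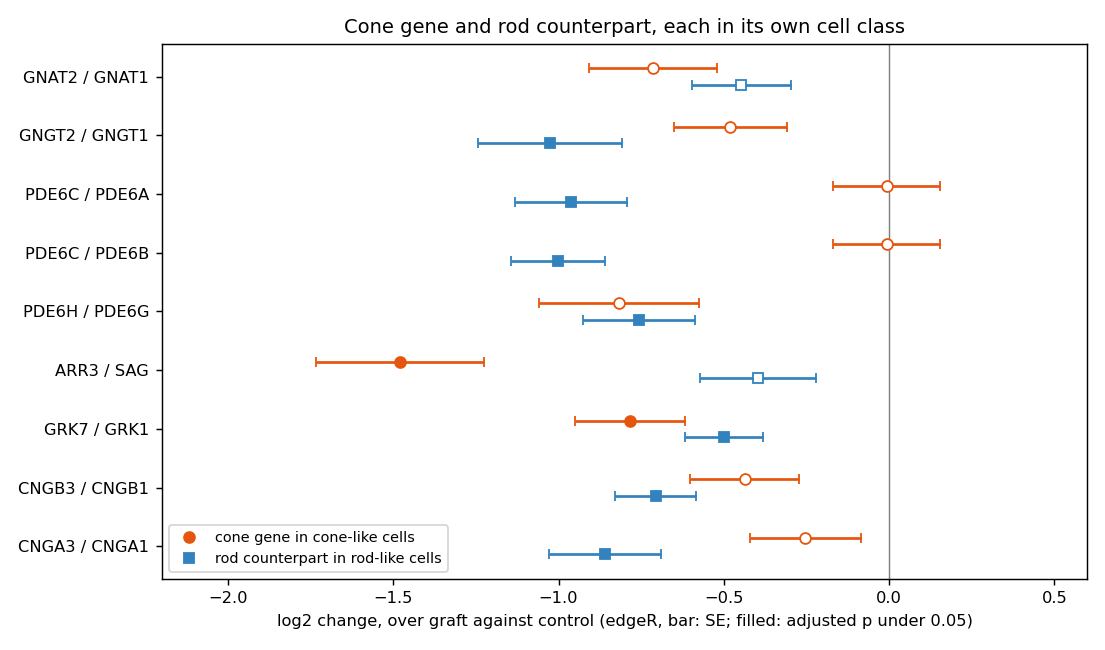
Log2 change over the graft of 8 of the cone genes in cone-like cells (circles) and of the rod counterpart of each in rod-like cells (squares), as edgeR estimates with SE, filled where the adjusted p is under 0.05. PDE6C lies near 0 while PDE6A and PDE6B lie near -1, and ARR3 lies further from 0 than SAG.

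Among the other pairs, the kinases had -0.78 ± 0.17 (GRK7) and -0.50 ± 0.12 (GRK1, adjusted p = 0.0123). The transducin alpha subunits had -0.71 ± 0.19 (GNAT2) and -0.45 ± 0.15 (GNAT1, adjusted p = 0.0547), and the gamma subunits -0.48 ± 0.17 (GNGT2) and -1.03 ± 0.22 (GNGT1). The channel subunits had -0.25 ± 0.17 (CNGA3) and -0.86 ± 0.17 (CNGA1), and -0.44 ± 0.16 (CNGB3) and -0.71 ± 0.12 (CNGB1). The difference between a cone gene and its rod counterpart was not tested.

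The 5 genes whose log2(CPM + 1) followed the mean of the 10 most closely over 24 control sums of 10 cell classes were GUCA1C, ATP6V1C2, LOC111097883, LOC111091860 and LOC106559582. Their Pearson correlations were 0.963, 0.953, 0.951, 0.950 and 0.950. ATP6V1C2 averaged 127 CPM in cone-like and 1.11 CPM in rod-like cells, while the 3 genes without a symbol averaged 3.37, 4.32 and 4.67 CPM in cone-like cells. The sums of 1 library share depth and free RNA, so these values describe the likeness in these libraries only.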

How the data were processed

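Per the labels' protocols, 3' single-cell libraries (10X v3.1) were made from trypsin-treated retina. The authors deposited unnormalized UMI counts for each gene in each barcode. They came from Cell Ranger 6.0.2 in LG5, 7.1.0 and 7.0.0 in the RC726 punches (over the graft, control) and 7.1.0 in RC724, per the file headers. The sources used here do not name the genome build or say how intron reads and human reads were treated. No coordinate is therefore printed, and the RefSeq table of dog assembly UU_Cfam_GSD_1.0 served only for names (33363 of 34981 matched, and 10 of the 10 genes) and neighbours.

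A barcode was kept with 300 or more genes and up to 20% mitochondrial UMIs. Each was scored by the share of simulated doublets (2 per barcode, each the sum of 2 random barcodes) among its nearest neighbours, and the top 6% of scores were removed. This took 14.0% to 18.8% of cone-like and 1.72% to 2.91% of rod-like barcodes in RC726 and RC724, and 3.16% to 4.09% and 0.159% to 0.184% in LG5. Clusters (30 components, 20 neighbours, leidenalg 0.10.2 at resolution 1.5) were made without the 10 genes and named from marker lists without them (score of at least 1.5, margin of 0.5, at least 3 markers), which named 47 of 51 clusters. Also barred from clustering, unless markers, were 131 genes whose whole-punch level moved past a set size the same way in all 3 experiments. That list was taken from the comparison of graft and control itself. For clustering, each gene was scaled within each library. The naming limits, the doublet score and the neighbour graph were chosen after results had been seen. The last 2 replaced Scrublet and scanpy, whose clusters were not identical when computed again. With those, OPN1SW had passed the threshold in cones, and GNAT2 and CNGB3 in the whole punch.

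UMIs were summed per class and library, and CPM scales such a sum to a common total. Sums were tested by the quasi-likelihood test of edgeR 4.0.16, after filterByExpr and TMM, with the experiment as a block and Benjamini-Hochberg adjustment over all genes tested in the class. The adjusted p-values are from it unless another tool is named. Ratios per experiment use CPM + 1. DESeq2 1.42.0 was an alternative. On simulated cone-like sums, edgeR recovered 48% of 100 genes changed by 1 log2 unit and 100% of those changed by 2. On rod-like sums it recovered 49% and 99%. The simulation gave all genes the same dispersion, changed no gene of low level and used the same change in each experiment. The real changes differed between experiments, so these shares need not hold for them.

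Both punches of an experiment came from 1 retina, which pairs them by design. Deviations of same-experiment sums correlated at 0.817 to 0.948 across genes, while punches of RC726 and RC724 correlated with each other at 0.676 to 0.763 and each with LG5 below 0. Each deviation was taken from the mean of its group, so an experiment unlike the others, as LG5 was, shapes all of these values. They do not test the pairing. The genes named are the 10 members, list members past the threshold, the rod partners of 8 members and the 5 genes most like the members. Results for 1 gene of the lists are not reported here. Members, lists and tests were chosen with earlier results of these data known.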

Additional observations from a re-analysis of the deposited data

How the results depend on the processing

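No alternative reversed a called direction. edgeR with no replicate block, which ignores the pairing, called 0 members in cones, rods and the whole punch, 0 of the pathway list and 0 of all genes in each. Leaving out 1 experiment at a time gave 1 to 4 members called in cones (2 with all experiments), 0 to 3 in rods (2) and 3 to 7 in the whole punch (3), and 0 for the difference between classes. For the pathway list it gave 3 to 6 in cones (6) and 6 to 22 in rods (21), and for all genes 271 to 591 in cones (426), 900 to 3089 in rods (3305) and 657 to 1032 in the whole punch (657). With no filter on low counts, 6 members and 901 genes were called in cones. With free RNA subtracted, 1 member and 184 genes were called in cones, and 0 of the 2 members that could still be tested in rods, which ARR3 and PDE6H could not. DESeq2 called 4 members and 272 genes in cones, and 6 members and 1952 genes in the whole punch. The cause of these moves was not tested. With no doublet removal, 2 members were called in cones and 2 in rods, and OPN1SW stood at -1.25 (edgeR adjusted p = 0.0876) in cones. That setting was chosen after the data were seen, as were cones without the low-UMI cluster, where GNAT2 was called as well (-0.71, edgeR adjusted p = 0.0482), and cones with few rod UMIs, where 2 members were called. The doublet step limits OPN1SW in RC726, at 96.1 CPM over the graft and 109 in control with it and 232 and 266 without it. A low count limits OPN1SW in LG5 over the graft, with 143 UMIs in 16 of 1177 cone-like barcodes. The 3 pairs of punches limit every test.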
